A study of Rattus norvegicus with 6 samples.

Results

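Chemokines and chemokine receptors were examined as a gene family, taken as every gene in the deposited count table whose symbol begins with Ccl, Cxcl, Cx3cl, Ccr, Cxcr, Cx3cr or Ackr followed by a digit. The rule gave 53 of the 17771 listed genes, 32 ligands and 21 receptors, and used no measured value. Bulk RNA sequencing had been done on corneas of Wistar rats grafted with a cornea from Sprague-Dawley (SD) rats, an allograft. The control group received saline and the treated group received resveratrol, a plant polyphenol, in both cases once daily into the peritoneum up to day 7 after surgery. Each group holds 3 libraries, called control 1 to 3 and resveratrol 1 to 3, and values by library are given in that order. Both groups carry a graft, so no ungrafted cornea is among the groups compared, and the age and sex of the rats are not given in the labels. The labels do not say whether each library is a separate animal, so p-values cover only the spread between these samples, and that spread may be technical.

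Chemokines are small secreted or membrane-bound proteins that guide leukocytes along gradients held on heparan sulfate, and they are named by the spacing of their first cysteines as CC, CXC or CX3C. They act through G protein-coupled receptors of the CCR, CXCR and CX3CR families, while the atypical receptors (Ackr genes) bind chemokines without G protein signalling and take them up or transport them. In a grafted cornea these molecules are known for drawing neutrophils, monocytes, dendritic cells and T cells into a tissue that normally has few of them.

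Krt12, the keratin that defines corneal epithelium, was at 31838 to 37566 CPM in the 6 libraries, as the labelled tissue requires, and the summed epithelial marker list lay at 82070 to 89910 CPM in control, against 81090 to 94010 CPM in resveratrol. CPM are counts scaled to library size with trimmed mean (TMM) factors, and FPKM also divide by gene length. Total counts were 35068936 to 37460756 per library, so that 3 counts, the limit that a count of 0 allows, equal 0.0790 to 0.0862 CPM. This limit covers counting error only. Control 1 and resveratrol 1 have descriptions ending in Sep, and the other 4 have descriptions ending in Oct. They are called the Sep and Oct libraries here, and what the endings stand for is not stated. The first principal component of all tested genes held 40.0% of the variance and placed the 3 control libraries on one side and the 3 resveratrol libraries on the other. The genes are close relatives that often lie side by side, and the sources used here do not give how reads shared by similar sequences were counted, so levels of near-identical members are uncertain.

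Most members had a lower mean in resveratrol corneas, with the smallest p-values for the B cell attractant Cxcl13 and the monocyte receptor Ccr2. The largest fitted folds were those of Cxcl11, Ccl24 and Ccl9, at log2 fold changes of -3.16, -2.38 and -2.27. These folds rested largely on control 1, without which they were -1.90, -1.03 and -0.59. The decoy receptor Ackr3 had a higher mean. Mean CPM was lower in resveratrol for 40 of the 53 members, 23 of 32 ligands and 17 of 21 receptors. A filter on low counts left 43 members, 28 ligands and 15 receptors, among 14213 genes. A gene could pass this filter through one group alone, so counts over the tested members describe them and support nothing further. edgeR's quasi-likelihood test called 0 of the 43 members at an adjusted p of 0.05, where it called 0% of all genes, with a smallest adjusted p of 0.1002 over all genes. At an unadjusted p under 0.05, edgeR gave 14 members lower and 1 higher, beside 11.7% of all genes lower and 7.84% higher. DESeq2, run as an alternative, gave 46 members an adjusted p and called 9 lower and 1 higher, beside 4.64% of all genes called lower and 2.23% called higher, 6.87% in all. The fitted log2 fold change (resveratrol minus control) was below 0 for 33 of 43 members, beside 51.2% of all genes. Its median was -0.65 over the members and -0.0080 over all genes. Control lay wholly above resveratrol in CPM for 10 members and wholly below for 1, beside 14.4% and 12.2% of all genes. A fitted fold of at least 2 was seen in 14 members lower and 1 higher, beside 3.91% and 0.556% of all genes.

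Ligands and receptors were also read apart. Of the 28 tested ligands 21 had a log2 fold change below 0, with a median of -0.46, and DESeq2 called 6 lower (Cxcl13, Ccl24, Cxcl12, Ccl9, Cxcl11 and Ccl22) and 0 higher. In 5 ligands control lay above resveratrol without overlap, and in the other 23 the groups overlapped. Among the 15 tested receptors 12 were below 0, with a median of -0.75, and DESeq2 called 3 lower, among them Ccr2 and Ccr6, and 1 higher, Ackr3. Those called lower made up 18.8% of the receptors with an adjusted p, beside 4.64% of all genes. Control lay above resveratrol without overlap in 5 receptors (33.3%) and below it in 1 (6.67%), beside 14.4% and 12.2% of all genes. Whether ligands and receptors differ from each other was not tested.

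**Figure D1:**
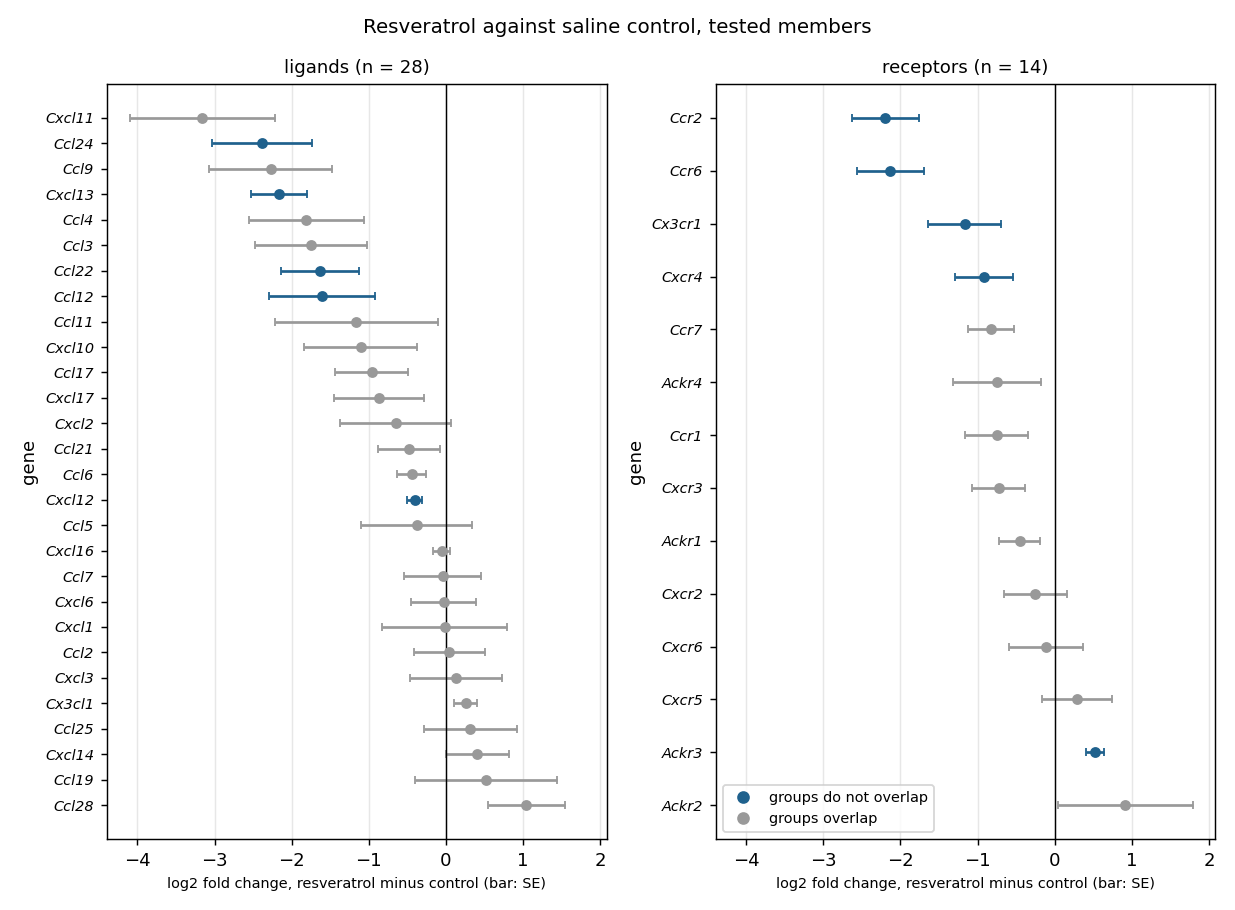
Log2 fold change of resveratrol minus control for the 28 tested ligands (left) and 14 of the tested receptors (right), with points for edgeR's fitted value, bars for the moderated standard error and blue for genes whose 3 control and 3 resveratrol libraries do not overlap in CPM. Ligands run from Cxcl11 at -3.16 to Ccl28 at 1.04, receptors from Ccr2 at -2.20 to Ackr2 at 0.92, and Ackr3 is the 1 blue point above 0.

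The most abundant ligands per length were not those with the largest differences. By mean FPKM over 6 libraries the order was Ccl6 (151), Cxcl6 (111), Ccl21 (59.3), Cxcl16 (48.9) and Cxcl1 (31.9), and these 5 held 80.9% of the summed FPKM of all 32 ligands. That sum was 540 ± 158 FPKM in control and 455 ± 54.4 in resveratrol (SD, n = 3 each), so the means differed by less than the control SD. In receptors the order was Ackr3 (15.9), Cxcr4 (7.34), Cxcr2 (5.52), Ccr1 (3.89) and Ackr4 (2.94), with 80.0% of the summed receptor FPKM. The receptor sum was 48.8 ± 8.67 FPKM in control and 40.4 ± 7.97 in resveratrol, a difference of means within the control SD but slightly above the resveratrol SD. Within the receptors the classes differed in level: the CC receptors summed to 9.45 to 13.1 FPKM in control and 4.40 to 7.97 in resveratrol without overlap, and the atypical receptors to 14.5 to 20.1 and 20.1 to 24.7.

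**Figure D2:**
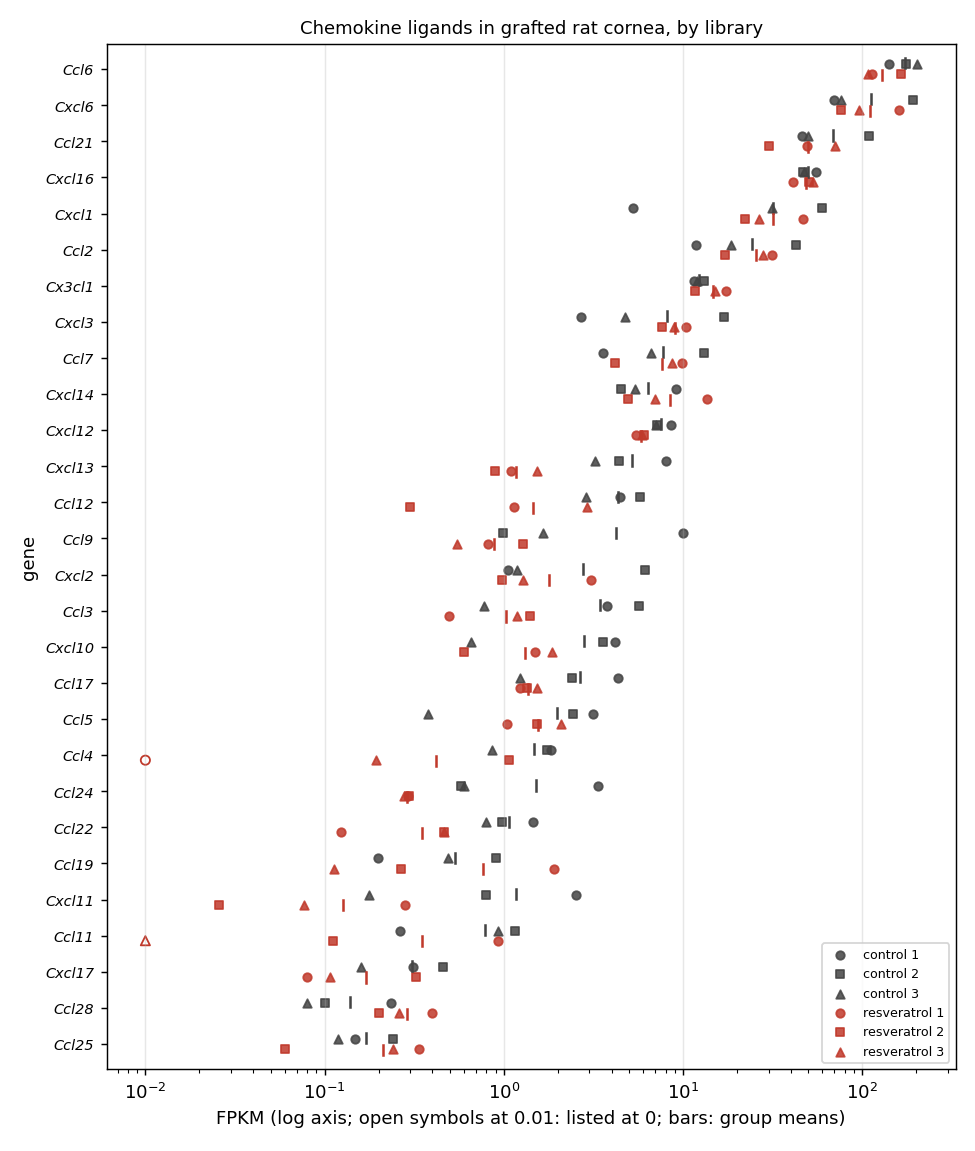
FPKM of each tested ligand in each library on a log axis, with black symbols for control, red for resveratrol, circles, squares and triangles for replicate 1, 2 and 3, and vertical bars for group means. Ccl6, Cxcl6, Ccl21, Cxcl16 and Cxcl1 head the order, and Cxcl13, Cxcl12, Ccl24 and Ccl22 show black symbols to the right of all red ones.

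The neutrophil-recruiting CXC ligands sit together on chromosome 14, and the promoters of 3 of them are shown because they carry the same motif. All sequences are from RefSeq (GRCr8), read 5′ to 3′ on the gene's strand and ending at the base before the annotated start. The 120 bases shown lie at chr14:17479322-17479441 (Cxcl1), chr14:17467256-17467375 (Cxcl2) and chr14:17596418-17596537 (Cxcl6), all on the minus strand. Capitals mark matches to the kappa B motif, the sequence read by NF-kappa B, searched on both strands, where overlapping matches were joined to 1 run.
Cxcl1: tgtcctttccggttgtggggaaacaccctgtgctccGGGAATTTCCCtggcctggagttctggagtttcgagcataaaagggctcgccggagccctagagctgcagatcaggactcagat
Cxcl2: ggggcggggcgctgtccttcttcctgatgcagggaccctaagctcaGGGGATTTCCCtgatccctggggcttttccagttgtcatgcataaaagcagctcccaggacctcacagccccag
Cxcl6: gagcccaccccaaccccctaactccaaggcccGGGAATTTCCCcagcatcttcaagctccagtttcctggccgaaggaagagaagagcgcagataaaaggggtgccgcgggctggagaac
The capital run begins 84 bases before the start in Cxcl1, 74 in Cxcl2 and 88 in Cxcl6, and its letters are the same in Cxcl1 and Cxcl6. RefSeq promoters matched 39 members, 26 ligands and 13 receptors. In the 250 bases before the start, a kappa B match was found in 8 of 26 ligands (30.8%) and 1 of 13 receptors (7.69%), beside 6.33% of 33469 promoters of all genes. A match describes the letters alone and shows neither binding nor a cause.

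With all libraries, these ligands did not separate the groups. Cxcl6, the most abundant of them, was at 108, 298 and 119 CPM in control, against 253, 117 and 145 CPM in resveratrol. Cxcl1, which signals through Cxcr2, was at 4.92, 55.7 and 29.2 CPM in control, against 44.2, 20.6 and 24.2 CPM in resveratrol. For both, control 2 was the highest library and control 1 the lowest, with resveratrol inside that range. Fitted log2 fold changes were -0.03 ± 0.42 for Cxcl6, -0.02 ± 0.81 for Cxcl1, 0.13 ± 0.59 for Cxcl3 and -0.65 ± 0.72 for Cxcl2. Here and below, the fold change is edgeR's and the ± is a moderated standard error from a separate limma fit. The sign turned for each of the 4 when 1 library was left out. Without control 2, Cxcl2 was at 0.66 and Cxcl3 at 1.26, and DESeq2 then called Cxcl3 higher (adjusted p = 0.00350). The monocyte attractants Ccl2 and Ccl7 had the same order at the top: of these 6 ligands, 6 were highest in control 2 and 6 were second highest in resveratrol 1, while 5 were lowest in control 1. Ccl2 was at 9.31, 33.7 and 14.4 CPM in control, against 24.9, 13.2 and 21.2 CPM in resveratrol, with a log2 fold change of 0.05 ± 0.46. Ccl7, its neighbour, gave -0.04 ± 0.50. The neutrophil marker list, which was also highest in control 2, summed to 229 to 584 CPM in control, against 163 to 203 CPM in resveratrol, with its granule genes Elane and Camp at no more than 18 counts over all libraries and Mpo not listed. In resveratrol 1 these 6 ligands were high while the neutrophil list stood at 203 CPM, and the part of neutrophils in these levels was not tested.

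The ligands of Cxcr3, which draw activated T cells and natural killer cells and are known as interferon-induced genes, were highest in control 1. Promoters of Cxcl10 (250 bases, chr14:15988816-15989065, plus strand) and Cxcl11 (120 bases, chr14:15973608-15973727, plus strand) are shown because both carry the kappa B motif and Cxcl10 the interferon-stimulated response element. Capitals mark kappa B matches and, as the first run in Cxcl10, the ISRE core.
Cxcl10: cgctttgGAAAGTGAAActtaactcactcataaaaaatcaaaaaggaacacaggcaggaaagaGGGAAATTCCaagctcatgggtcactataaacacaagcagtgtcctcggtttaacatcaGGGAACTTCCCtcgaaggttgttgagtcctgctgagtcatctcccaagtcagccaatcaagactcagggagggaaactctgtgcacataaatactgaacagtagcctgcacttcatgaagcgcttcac
Cxcl11: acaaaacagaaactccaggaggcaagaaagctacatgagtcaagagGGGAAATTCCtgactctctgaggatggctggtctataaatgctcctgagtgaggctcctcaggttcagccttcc
In Cxcl10 the ISRE core begins 243 bases before the start and the kappa B runs begin at 187 and 128, while in Cxcl11 the kappa B run begins at 74. The ISRE core, searched as GAAANNGAAA on both strands, was found in 2 of 26 ligand promoters (7.69%, Cxcl10 and Ccl19) and 0 of 13 receptor promoters, beside 3.41% of all promoters. The GAS core, searched as TTCNNNGAA, a motif read by STAT factors, was found in 3 ligand promoters (11.5%) and 1 receptor promoter (7.69%), beside 7.67% of all.

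Cxcl10 was at 4.80, 4.05 and 0.751 CPM in control, against 1.72, 0.671 and 2.05 CPM in resveratrol. Control 1 and 2 were high, control 3 lay within the resveratrol range, and the groups overlapped, with a log2 fold change of -1.11 ± 0.73. Cxcl11 was at 2.67, 0.844 and 0.188 CPM in control, against 0.300, 0.0268 and 0.0790 CPM in resveratrol, where the lowest value is 1 count. DESeq2 called it lower (adjusted p = 0.0407), and edgeR's adjusted p was 0.189. Its log2 fold change was -3.16 ± 0.94, and without control 1 it was -1.90, where DESeq2 gave no adjusted p. Cxcl9 did not pass the filter and had 163, 9 and 10 counts in control and 2, 7 and 12 in resveratrol, so that 1 library held most of its counts. Cxcr3, their receptor, was at 1.72, 0.925 and 1.34 CPM in control, against 0.574, 0.886 and 0.948 CPM in resveratrol. The groups overlapped in a narrow stretch, and the log2 fold change was -0.72 ± 0.34 (edgeR's adjusted p = 0.315).

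The CC ligands that recruit monocytes and T cells varied in the size and spread of their differences. Of the 8 tested, 7 were below 0, with a median of -1.03, and control lay above resveratrol in 1 (12.5%, beside 14.4% of all genes). Ccl6, a myeloid chemokine of rodents, was the ligand with the highest mean FPKM, though not the highest CPM. It was at 49.6, 61.6 and 70.6 CPM in control, against 40.2, 56.9 and 36.5 CPM in resveratrol. Resveratrol 2 lay inside the control range, and the log2 fold change was -0.44 ± 0.19 (edgeR's adjusted p = 0.259). Ccl9, its neighbour and a ligand of Ccr1, was at 13.0, 1.28 and 2.14 CPM in control, against 1.07, 1.64 and 0.685 CPM in resveratrol. Control 1 stood far above the other 5 libraries. The log2 fold change of Ccl9 was -2.27 ± 0.80, and without control 1 it was -0.59. DESeq2 called Ccl9 lower with all libraries (adjusted p = 0.0384) and not without control 1 (adjusted p = 0.595).

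Ccl12, a Ccr2 ligand of rodents, was at 2.41, 3.13 and 1.55 CPM in control, against 0.628, 0.161 and 1.53 CPM in resveratrol. Control 3 and resveratrol 3 had 58 counts each, and in FPKM (2.87 and 2.90) they crossed, so the groups are barely apart. Its log2 fold change was -1.61 ± 0.69 (edgeR's adjusted p = 0.250). Ccl3, a ligand of Ccr1, was at 2.87, 4.33 and 0.590 CPM in control, against 0.382, 1.05 and 0.869 CPM in resveratrol. Control 3 lay within the resveratrol range, and the log2 fold change was -1.75 ± 0.73. Ccl4, its close relative, had a log2 fold change of -1.81 ± 0.74 on 58 counts in all, with 0 counts in resveratrol 1, which allows up to 0.0819 CPM. Ccl5, a T cell and monocyte attractant, gave -0.38 ± 0.72 with a value in control 3 below all resveratrol libraries.

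Ccl24, an eosinophil attractant made by macrophages, was at 4.92, 0.844 and 0.885 CPM in control, against 0.437, 0.430 and 0.395 CPM in resveratrol. All control libraries lay above all resveratrol libraries, with control 1 far above the other 2. The log2 fold change was -2.38 ± 0.65, and without control 1 it was -1.03. DESeq2 called it lower (adjusted p = 0.0221), but not without control 1 (adjusted p = 0.305). Ccl11, or eotaxin, gave -1.16 ± 1.06 and ranged from 0 to 0.929 CPM in resveratrol alone. Without resveratrol 1 it was at -3.77, and DESeq2 then called it lower (adjusted p = 0.0431). Ccr3, the receptor of both, did not pass the filter, with 5, 7 and 4 counts in control and 1 count in each resveratrol library.

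Ccl22 and Ccl17 are ligands of Ccr4, a receptor of regulatory and helper T cells, and Ccl20 is the ligand of Ccr6. Ccl22 was at 2.56, 1.71 and 1.39 CPM in control, against 0.218, 0.805 and 0.790 CPM in resveratrol. The groups did not overlap, and the log2 fold change was -1.63 ± 0.51 (edgeR's adjusted p = 0.166, DESeq2's 0.0412). Ccl17 gave -0.96 ± 0.47 with overlap of control 3 and the resveratrol libraries. Ccl20 was not tested in edgeR, with 46 counts in all and its highest level, 0.710 CPM, in resveratrol 1.

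Among ligands of lymphoid tissue and stroma, Cxcl13 and Cxcl12 separated the groups. Cxcl13, which draws B cells and follicular T cells through Cxcr5, was at 9.11, 4.95 and 3.65 CPM in control, against 1.26, 0.993 and 1.69 CPM in resveratrol. The lowest control value was more than the highest resveratrol value, and the log2 fold change was -2.17 ± 0.37, a fitted fold of 4.49. edgeR's adjusted p was 0.1002 (unadjusted p = 0.00072) and DESeq2's was 2.42e-05. Its receptor Cxcr5 was at 0.483 to 0.952 CPM in control, against 0.403 to 1.001 CPM in resveratrol, with a log2 fold change of 0.29 ± 0.46. B cell markers were nearly absent, since Cd79a, Cd79b and Ms4a1 each had at most 18 counts over all 6 libraries, and the list summed to 0.680 to 2.47 CPM in control, against 0.737 to 1.16 CPM in resveratrol.

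Cxcl12, the stromal ligand of Cxcr4 and Ackr3, was at 59.6, 49.9 and 48.9 CPM in control, against 38.3, 41.4 and 39.8 CPM in resveratrol. The groups did not overlap, the difference was small, and the spread was small as well, at 52.8 ± 5.91 and 39.9 ± 1.54 CPM (SD, n = 3 each). The log2 fold change was -0.41 ± 0.10, with an adjusted p of 0.125 in edgeR and 0.0247 in DESeq2. Ccl21, the lymphatic ligand of Ccr7, was at 39.2, 92.5 and 42.0 CPM in control, against 41.9, 24.9 and 57.7 CPM in resveratrol. Control 2 alone was high, and the log2 fold change of -0.48 ± 0.40 became 0.03 without it. Ccl19, the other Ccr7 ligand, gave 0.52 ± 0.92, and Cxcl14, a chemokine of epithelia and stroma, gave 0.41 ± 0.41.

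The membrane-bound ligands were abundant and even. Cxcl16, the ligand of Cxcr6, was at 94.5, 79.8 and 80.9 CPM in control, against 71.4, 85.4 and 88.6 CPM in resveratrol, and the groups overlapped with a log2 fold change of -0.06 ± 0.11. Cx3cl1, or fractalkine, was at 39.3, 44.7 and 40.8 CPM in control, against 60.0, 39.2 and 49.6 CPM in resveratrol (0.25 ± 0.15). Its mean was thus higher in resveratrol while the mean of its receptor was lower. The epithelial ligands Ccl25 (0.32 ± 0.61), Ccl28 (1.04 ± 0.50) and the untested Ccl27 were all scarce, at 45 to 63 counts in all. Cxcl17, a mucosal chemokine, gave -0.87 ± 0.59 on 53 counts, and Ccl1, with 2 counts in total, was not tested.

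**Figure D3:**
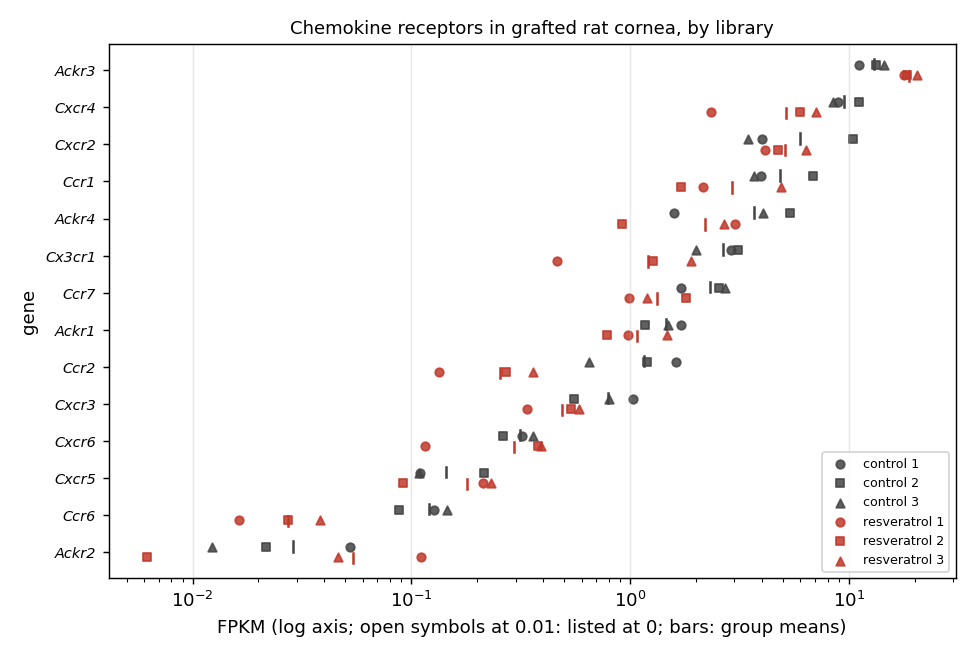
FPKM of 14 tested receptors in each library on a log axis, with symbols as for the ligands. Red symbols lie to the right of black ones for Ackr3, at 17.9 to 20.5 against 11.1 to 14.5 FPKM, and to the left of them without overlap for Cxcr4, Cx3cr1, Ccr2 and Ccr6.

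Ccr2, the receptor by which monocytes leave bone marrow and enter inflamed tissue, was at 8.16, 5.99 and 3.27 CPM in control, against 0.683, 1.34 and 1.76 CPM in resveratrol. Every control library was above every resveratrol library, and the log2 fold change was -2.20 ± 0.44, a fitted fold of 4.58. The adjusted p was 0.106 in edgeR and 0.000121 in DESeq2. Ccr1, a receptor of monocytes and neutrophils, was at 7.36, 12.8 and 6.86 CPM in control, against 4.07, 3.14 and 8.87 CPM in resveratrol. Resveratrol 3 lay inside the control range, and the log2 fold change was -0.75 ± 0.41.

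Ccr6, a receptor of dendritic cells and of T helper cells that make interleukin-17, was scarce, with 80 counts over all libraries. It was at 0.632, 0.435 and 0.724 CPM in control, against 0.0819, 0.134 and 0.184 CPM in resveratrol, where the lowest value is 3 counts. The groups did not overlap, and the log2 fold change was -2.13 ± 0.43 (edgeR's adjusted p = 0.118, DESeq2's 0.0341). Ccr7, which leads dendritic cells and naive T cells to lymph nodes, was at 2.10, 3.13 and 3.30 CPM in control, against 1.23, 2.17 and 1.42 CPM in resveratrol. Control 1 and resveratrol 2 crossed, and the log2 fold change was -0.82 ± 0.30 (edgeR's adjusted p = 0.219). Ccr3, Ccr4, Ccr8, Ccr9, Ccr10 and Ccr1l1, a rodent relative of Ccr1, were not tested, with 10 to 55 counts each over all libraries.

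Cxcr4, the signalling receptor of Cxcl12 on most leukocytes and on sprouting endothelium, was at 15.4, 19.2 and 14.6 CPM in control, against 4.10, 10.1 and 11.8 CPM in resveratrol. The groups did not overlap, with resveratrol 1 the lowest library, and the log2 fold change was -0.92 ± 0.37 (edgeR's adjusted p = 0.223). Cx3cr1, the fractalkine receptor of resident macrophages and patrolling monocytes, was at 3.85, 4.16 and 2.65 CPM in control, against 0.628, 1.66 and 2.45 CPM in resveratrol. Here too resveratrol 1 was lowest, and control 3 and resveratrol 3 were close, at a log2 fold change of -1.17 ± 0.47 (edgeR's adjusted p = 0.230). Cxcr2, the neutrophil receptor, was at 5.32, 13.8 and 4.58 CPM in control, against 5.54, 6.20 and 8.22 CPM in resveratrol. Only control 2 stood out, and the log2 fold change of -0.25 ± 0.40 became 0.43 without it. Cxcr6, a receptor of tissue-resident T cells, gave -0.11 ± 0.48.

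Ackr3 stood apart among the atypical receptors in having all resveratrol values above control. This receptor, which removes Cxcl12 and Cxcl11 from the tissue, was at 23.8, 28.4 and 31.0 CPM in control, against 38.7, 38.7 and 42.4 CPM in resveratrol. The 2 groups had a gap of several CPM between them, and the log2 fold change was 0.53 ± 0.11. edgeR's adjusted p was 0.117, and DESeq2 called it higher (adjusted p = 0.00546). It was the only member of 43 with all resveratrol libraries above control (2.33%, beside 12.2% of all genes). Ackr1, which carries chemokines across venular endothelium, gave -0.45 ± 0.27. Ackr4, a scavenger of Ccl19 and Ccl21, gave -0.75 ± 0.57, and Ackr2, a scavenger of inflammatory CC chemokines, 0.92 ± 0.87 on 80 counts. In all 3 the groups overlapped.

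Ligands and receptors of one axis were set side by side as FPKM ratios in each library. The pairs were chosen after their values were seen, so the ratios are descriptive. Cxcr4 per Ackr3 was 0.805, 0.841 and 0.585 in control, against 0.132, 0.325 and 0.347 in resveratrol, so both receptors of Cxcl12 stood closer to each other in control. Cx3cr1 per Cx3cl1 was 0.250, 0.238 and 0.166 in control, against 0.0267, 0.108 and 0.126 in resveratrol. Ccr2 per Ccl2 was 0.137, 0.0277 and 0.0353 in control, against 0.00426, 0.0158 and 0.0130 in resveratrol. In each of these ratios the groups were apart, as they were for Ccl12 per Ccl2. For Cxcr4 per Ackr3 this was fixed in advance, because control lay wholly above resveratrol for Cxcr4 and wholly below for Ackr3. The groups overlapped for Ccr7 per Ccl21, Ccl22 per Ccl17 and Ccl6 per Ccl9.

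Markers of the cells that carry these receptors differed between the groups as well, and in bulk tissue fewer cells of a type and less RNA per cell cannot be told apart. The 11 listed macrophage and monocyte markers summed to 388 to 516 CPM in control, against 286 to 359 CPM in resveratrol, with 9 of 11 below 0 on the log2 scale and Marco not listed. Dendritic cell markers (6 of 6 below 0) summed to 32.3 to 56.0 and 20.3 to 23.4 CPM, and T cell markers (9 of 9 tested below 0) to 31.7 to 64.9 and 18.1 to 28.8 CPM. Blood vessel markers (8 of 8 below 0) lay at 496 to 673 and 323 to 409 CPM. Control was above resveratrol without overlap in each of these sums. The lymphatic, keratocyte and corneal endothelial lists overlapped, at 133 to 188 and 134 to 193 CPM, at 4921 to 5792 and 3623 to 5371 CPM, and at 579 to 698 and 589 to 611 CPM in control and resveratrol.

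Set against these lists, some receptors still separated the groups and others did not. Per 100 CPM of macrophage and monocyte markers, Ccr2 was at 1.58, 1.26 and 0.844 CPM in control, against 0.237, 0.469 and 0.492 CPM in resveratrol, so its groups did not overlap on this base either. Cxcl13 on the same base was at 1.77, 1.04 and 0.941 in control, against 0.437, 0.347 and 0.470 in resveratrol. Cx3cr1 was at 0.685 to 0.874 and 0.218 to 0.683, with almost no gap. Ccr1, Cxcr4 and Ccl12 overlapped on this base. Per 100 CPM of T cell markers, Ccr6 was at 0.975 to 2.29 in control, against 0.453 to 0.639 in resveratrol, whereas Cxcr3 (2.12 to 4.23 and 3.17 to 3.75), Cxcr4 and Cxcr6 overlapped. In every library 1 gene of the T cell list gave most of its sum, so this base stands largely for that gene. Whether the sum follows T cells alone was not tested. Ccr7 per dendritic cell markers overlapped too, and Ccl22 was at 4.12 to 4.57 in control, against 1.03 to 3.97 in resveratrol.

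Cxcl12 per 100 CPM of blood vessel markers was at 8.85 to 9.86 in control, against 9.74 to 11.9 in resveratrol and per keratocyte markers at 0.861 to 1.21 and 0.714 to 1.10, with overlap on both bases. Ackr3, whose CPM was already higher in every resveratrol library, was at 3.54 to 6.25 in control and 9.52 to 11.99 in resveratrol per vessel markers. It was at 0.484 to 0.607 and 0.720 to 1.17 per keratocyte markers, and at 0.0265 to 0.0367 and 0.0411 to 0.0523 per epithelial markers. The vessel sum was lower in every resveratrol library, so the ratio to it was bound to separate the groups. The keratocyte and epithelial sums overlapped between the groups. A list sum is dominated by its most abundant genes, and these ratios were not tested.

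**Figure D4:**
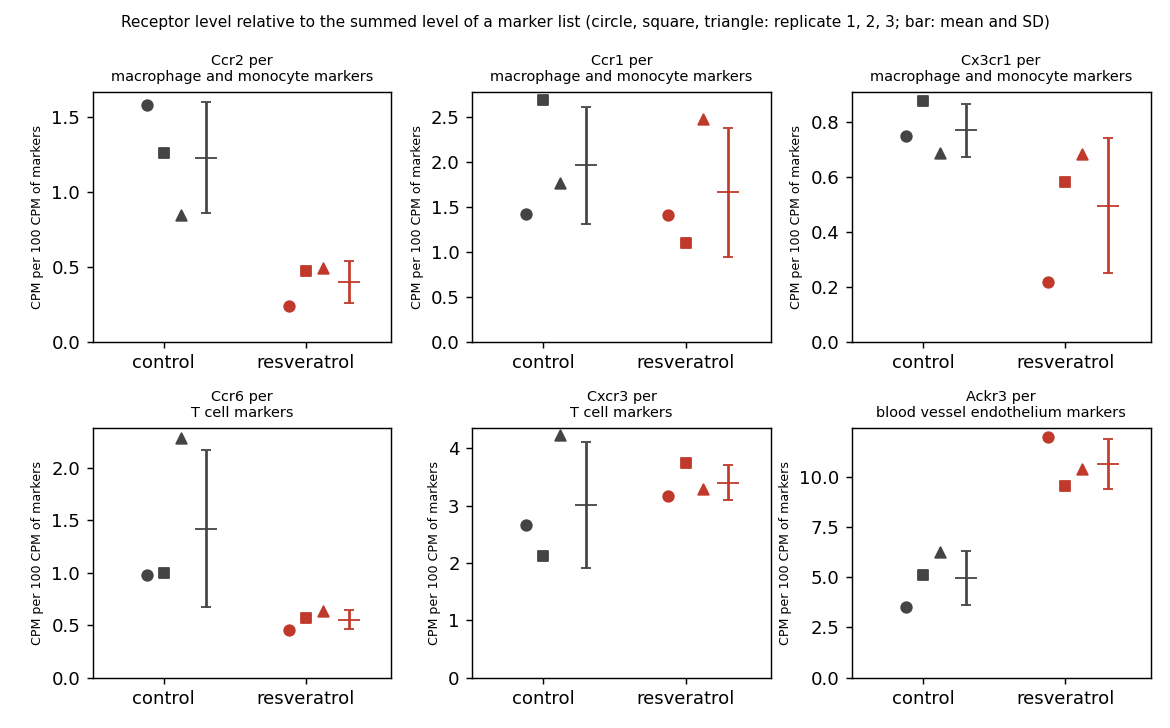
CPM of 6 receptors per 100 CPM of a marker list, with 1 symbol per library and bars for the mean and SD of 3 libraries. Ccr2 and Cx3cr1 per macrophage markers and Ccr6 per T cell markers are higher in all control libraries, Ccr1 per macrophage markers and Cxcr3 per T cell markers overlap, and Ackr3 per vessel markers is higher in all resveratrol libraries.

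The libraries of 1 group differed from each other in which chemokines they carried. Of 28 tested ligands, 11 were highest in control 1, 11 in control 2, 1 in control 3 and 5 in resveratrol 1. Control 1 led for Cxcl10, Cxcl11, Cxcl13, Ccl24, Ccl9, Ccl22 and Ccl17, and control 2 for the neutrophil CXC ligands, Ccl2, Ccl7, Ccl12 and Ccl3. Among the receptors 7 of 15 were lowest in resveratrol 1 and 6 in resveratrol 2.

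**Figure D5:**
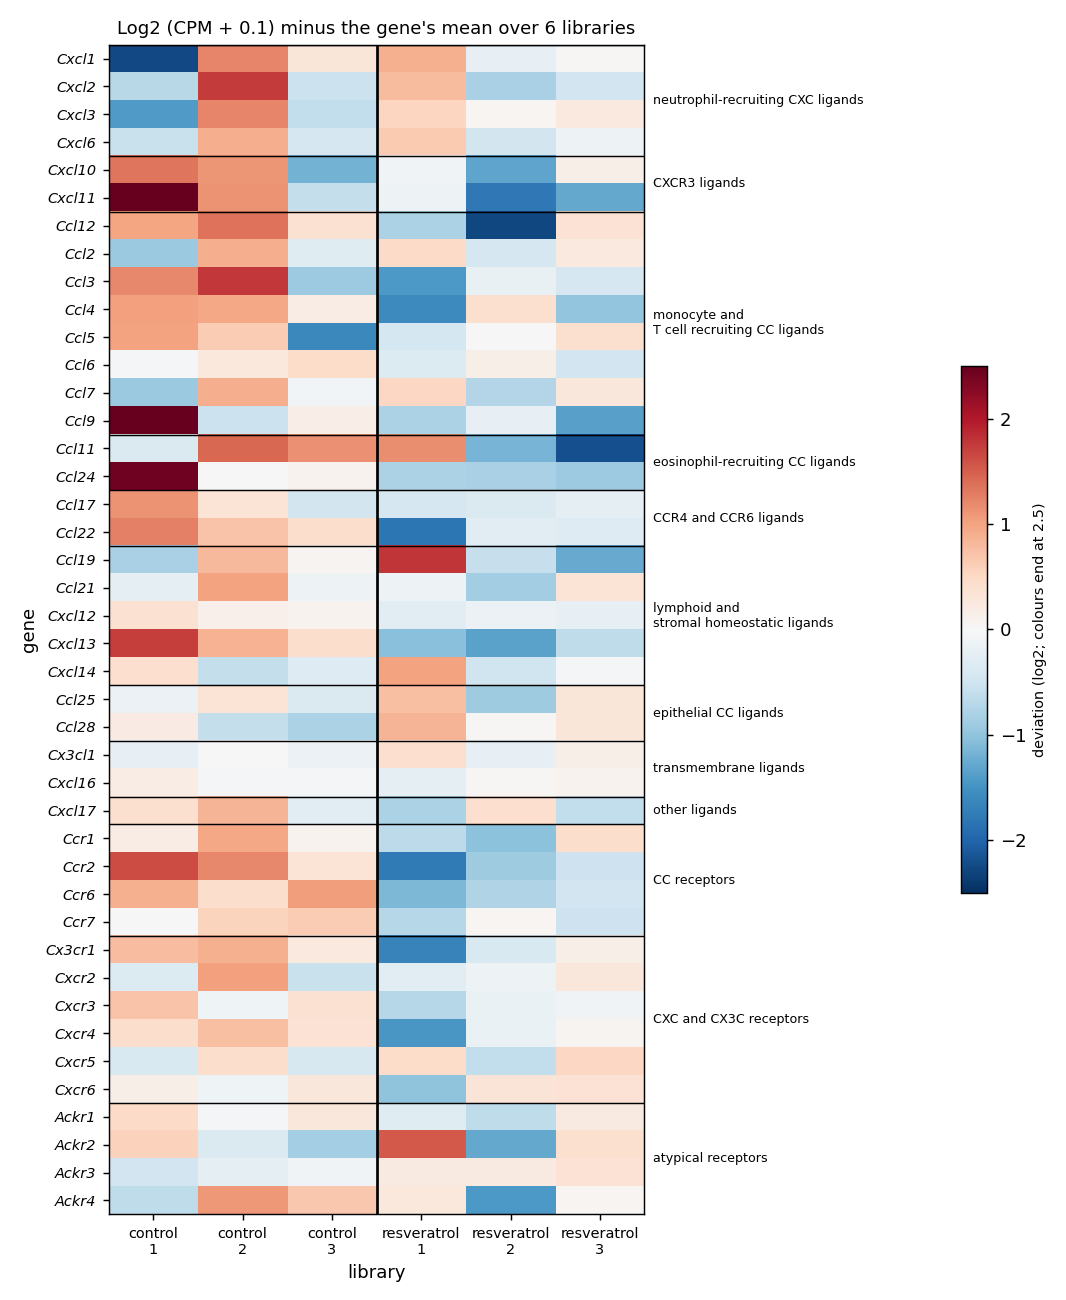
Deviation of log2(CPM + 0.1) from the gene's mean over 6 libraries for 42 of the tested members, with libraries in columns, genes in rows by class, red above and blue below the mean. Cxcl1, Cxcl2, Cxcl3, Cxcl6, Ccl2 and Ccl7 are reddest in control 2, while Cxcl11, Ccl9 and Ccl24 are reddest in control 1 and Ccr2 is red in all 3 control columns.

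A fit restricted to the Oct libraries (replicates 2 and 3) gave the same sign for 33 of 41 tested members with a value. It did so for 11 of the 11 members whose groups did not overlap. For those 11 the sign was fixed in advance, because groups that do not overlap keep their order in any subset. In the Oct libraries the log2 fold change was -1.68 for Cxcl13, -1.57 for Ccr2, -1.84 for Ccr6 and 0.45 for Ackr3. Between the Sep libraries, resveratrol 1 and control 1, the log2 CPM difference was -2.86 for Cxcl13, -3.58 for Ccr2, -2.95 for Ccr6 and 0.70 for Ackr3, with 1 library a group and no test. These genes are among the 11, so their signs in the Sep pair were fixed as well and only the sizes are informative. For the neutrophil ligands the 2 subsets went opposite ways: Cxcl1 stood at -0.92 in the Oct libraries and 3.17 in the Sep pair, and Cxcl6 at -0.67 and 1.22. The difference between the subsets was not tested.

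When each library was left out in turn, the sign of edgeR's log2 fold change held in all 6 fits for 28 of 43 members and changed in 15. The 28 include the 11 members without overlap, whose sign was fixed by that order. DESeq2 called Cxcl13 and Ccr2 in all 6 such fits, and also in the Oct libraries alone. Ackr3 was called in 5, with an adjusted p of 0.0572 without resveratrol 3. DESeq2 called Ccl24, Ccl9 and Cxcl11 in 2 of 6, Cxcl12 in 1, and Ccl22 and Ccr6 in 0. Without control 1 it gave no adjusted p for Cxcl11 or Ccr6, so each of them could be called in 5 fits only. Conversely, 10 members that DESeq2 did not call with all libraries were called when 1 was left out. These fits called 390 to 1027 genes each. The share of all genes newly called was not counted, so the 10 describe the members alone. Ccl3 and Cxcl10 were called lower without control 3, and Ccl12, Ccr1, Cx3cr1 and Cxcr4 lower without resveratrol 3. Ccl6 was called lower without resveratrol 2, Ccl11 lower without resveratrol 1, Cxcl9 lower without control 2 or 3, and Cxcl3 higher without control 2. For Cxcl9, DESeq2 gave no p-value with all libraries, and 163 of its 203 counts were in control 1. Without control 1 DESeq2's log2 fold change of Cxcl9 was -0.448, with no adjusted p.

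Neighbouring genes did not share a direction throughout, by gene order in RefSeq (GRCr8). In the cluster of Ccl2, Ccl7, Ccl11, Ccl12 and Ccl1, Ccl2 and Ccl7 stood near 0 beside -1.61 for Ccl12. In that of Ccl5, Ccl9, Ccl6, Ccl3 and Ccl4, all 5 were below 0, from -0.38 for Ccl5 to -2.27 for Ccl9. Cx3cl1 (0.25) lies between Ccl17 (-0.96) and Ccl22 (-1.63). On the receptor side, Ccr2 (-2.20) shares a cluster with Ccr1 (-0.75) and Cxcr6 (-0.11).

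Genes that work with the family were read from 4 lists, to be set beside the 51.2% of all genes below 0 and the 4.64% and 2.23% that DESeq2 called lower and higher. Among 5 tested chemokine and chemoattractant genes outside the naming rule, 5 were below 0, with a median of -0.67, and 1 was called lower by DESeq2. This was Rarres2, which encodes chemerin, at 159, 119 and 158 CPM in control, against 105, 90.0 and 79.2 CPM in resveratrol without overlap (-0.67 ± 0.15, DESeq2's adjusted p = 0.00334). Cmklr1, the chemerin receptor of macrophages and dendritic cells, gave -0.55 ± 0.19. Downstream, 10 of 15 G protein, arrestin and RGS genes (66.7%) were below 0, with a median of -0.21, and DESeq2 called 2 lower. These were the brakes on G protein signalling Rgs2 (-1.17 ± 0.29) and Rgs1 (-1.31 ± 0.35), while Gnb1, a G protein subunit found in most cells, stood at 0.06 ± 0.07.

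In the list of leukocyte chemotaxis kinases and the Rac module, 16 of 19 were below 0, with a median of -0.62, and DESeq2 called 4 lower. Plcb2, the phospholipase of leukocyte chemoattractant signalling, was at 3.08, 2.59 and 2.90 CPM in control, against 0.792, 1.13 and 1.37 CPM in resveratrol (-1.38 ± 0.26). Pik3cd, a leukocyte PI3 kinase, gave -0.64 ± 0.19, and Rac1, a cytoskeletal switch of most cells, 0.06 ± 0.07. Among 21 genes that cleave chemokines or build the heparan sulfate that displays them, 13 (61.9%) were below 0, with a median of -0.05. That share is not far from the 51.2% of all genes. DESeq2 called 5 lower (23.8%) and 2 higher, beside 4.64% and 2.23% of all genes. The protease Mmp14 was at 653, 685 and 546 CPM in control, against 418, 363 and 418 CPM in resveratrol (-0.65 ± 0.11). Of the heparan sulfate proteoglycans, Gpc1 was at -0.53 ± 0.10, Sdc1, the syndecan of epithelia, at 0.20 ± 0.10, Sdc2 at -0.06 ± 0.10, Sdc3 at -0.05 ± 0.17 and Sdc4 at 0.53 ± 0.14. DESeq2 called Gpc1 lower and Sdc4 higher (adjusted p = 0.000690 and 0.0134) and did not call the other 3. edgeR's quasi-likelihood test called 0 genes of these 4 lists at an adjusted p of 0.05, and at an unadjusted p under 0.05 it gave 26 of the 60 tested lower (43.3%) and 5 higher (8.33%), beside 11.7% and 7.84% of all genes. The share higher is thus near that of all genes.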

How the data were processed

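RNA from corneas was sequenced as paired reads, and 3 control and 3 resveratrol libraries were grouped by their treatment label. The values are raw gene counts and FPKM for the same genes, both deposited by the authors. The authors' FPKM were used for levels between genes and the deposited counts for tests. The submitters' processing notes name R 3.2.0, DESeq2 and the build mRatBN7.2 without roles. Not given in the sources used here were the aligner, counter, strand setting and treatment of shared reads. Header names in the count table were run together, and columns were matched by name.

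Counts were filtered with filterByExpr, scaled by TMM and tested with edgeR 4.0.16 (glmQLFit, glmQLFTest, no covariate) in R 4.3.3 over all 14213 genes, adjusted after Benjamini-Hochberg, at a threshold of 0.05. Standard errors are moderated ones from limma 3.58.1 on log2 CPM (prior count 2). They do not come from the edgeR fit whose fold changes they stand beside, and the prior count narrows differences of genes with few counts. Alternatives were DESeq2 1.42.0, which gave 3105 genes no adjusted p, limma voom, other scaling and filters, log2(FPKM + 1) and log2(FPKM + 0.1), the replicate block, the Sep or Oct ending, the Oct libraries alone and leaving out each library. The likelihood ratio test, DESeq2 without each library and DESeq2 on the Oct libraries were added after the data were seen. An exact permutation test of 3 against 3 cannot go below 0.1, so none was made. The tests were tried on simulated data.

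Members, lists and tests were chosen with earlier results of these data known. Values by library are given for the 5 ligands and 4 receptors with the highest FPKM, for members with an unadjusted edgeR p under 0.05 or with groups that did not overlap, and for Cxcr3 and its ligands. Some genes that this rule or a marker list names are not reported here, although counts over all members and list sums include them. From each pathway list come the 2 genes with the smallest p and the 1 with the highest CPM. Values by library of Ccl2, Cx3cl1, Cxcl9 and Ccr3, the ratios of genes and of genes to markers, and the promoters printed were chosen after values were seen, as was the class of Ccr1l1. All 53 symbols matched RefSeq (GRCr8), whose build differs from that of the files, so it was used for names, gene order and promoters only.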

Additional observations from a re-analysis of the deposited data

How the results depend on the processing

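edgeR's quasi-likelihood test and limma called 0 ligands and 0 receptors under each alternative run. Over all genes edgeR called 21 without control 3 and 1 without resveratrol 2, in each case lower and no member, and 0 under the other settings. DESeq2 called 1007 genes, 6 ligands and 4 receptors, and edgeR's likelihood ratio test 829, 4 and 4. DESeq2 called 623, 390 and 1027 genes without control 1, 2 and 3, and 530, 642 and 817 without resveratrol 1, 2 and 3. Members called in these fits were 1 to 8 ligands (1 without control 1, 2 without resveratrol 2 or 3, 3 without resveratrol 1) and 2 to 5 receptors. On the Oct libraries DESeq2 called 406 genes, 2 ligands and 1 receptor. The cause of these differences was not tested. Over 24 named members, 593 values under alternatives comprised 509 with the same sign and side of the threshold, 53 with the same sign that passed it, and 31 with the opposite sign.

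When a library was left out, edgeR's log2 fold change ranged from -0.786 to 0.0325 for Ccl21, from -0.523 to 0.427 for Cxcr2, from -0.513 to 0.793 for Cxcl1, from -0.414 to 0.593 for Cxcl6 and from -0.108 to 0.0399 for Cxcl16. Without control 2, DESeq2 gave 0.0463 for Ccl21, 0.443 for Cxcr2, 0.804 for Cxcl1 and 0.606 for Cxcl6. Without resveratrol 2 and 3 it gave 0.202 and 0.119 for Cxcl1 and 0.196 and 0.0835 for Cxcl6, and without control 1 and resveratrol 1 it gave 0.0360 and 0.0538 for Cxcl16. Voom gave 0.458 for Cxcl1 and 0.0515 for Cxcl6, log2(FPKM + 1) 0.445 and 0.0664, and log2(FPKM + 0.1) 0.497 and 0.0676. Cxcl1 was 0.217 with the ending as covariate, and Cxcl16 in the Oct libraries was 0.117 by edgeR and 0.130 by DESeq2. The cause was not tested.

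With the replicate number as a block, edgeR called 0 genes, 0 ligands and 0 receptors, Cxcl1 was 0.303 and Cxcl6 0.0655. Same-numbered libraries did not deviate together (correlations of -0.00442, -0.0123 and -0.0225 over genes), so the numbers were not taken as pairs. Of the 10 members that did not pass the filter, Cxcl9 had 203 counts, most of them in control 1, and the other 9 had 2 to 55, where depth limits what can be seen.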
